A study of Homo sapiens with 7 samples.

Results

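Keratins are the intermediate filament proteins of epithelial cells, and 61 probes for them, with 56 gene names, were found among the 42405 probes of the array by taking every non-control probe whose name starts with KRT and a digit. The keratin-associated proteins of hair (KRTAP) were not taken. The names held 29 type I keratins, 26 type II keratins and the pseudogene KRT8P12. Expression was measured in ACHN cells, a line of human renal cell adenocarcinoma, to search for genes that respond to the lncRNA HOTAIR. The ACHN-EV samples (EV 1 to EV 4) had been infected with retrovirus carrying the empty pBabe-hygro vector and the ACHN-HOTAIR samples (HOTAIR 1 to HOTAIR 3) with retrovirus carrying human HOTAIR cDNA in the same vector, and both were selected with hygromycin. Whether they came from separate infections or cultures is not given in the sources used here, so p-values measure only the spread between these 7 samples, which may be technical.

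Keratins form filaments only as pairs, with an acidic type I chain bound to a basic type II chain. KRT8 with KRT18 is the pair of simple epithelia such as the renal tubule, joined in many of them by KRT7 and KRT19. Stratified epithelia use other pairs, layer by layer, and the hair shaft and its inner root sheath use keratins of their own. In the human genome the type I genes other than KRT18 lie in a cluster on chromosome 17, while the type II genes and KRT18 lie on chromosome 12, the chromosome that also carries HOTAIR.

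A level below is the log2 of a probe's background-subtracted intensity minus the log2 of the 75th percentile of the array, so that 0 is a bright probe and about -7 is the dim end. A probe was counted as detected on an array when Feature Extraction, the image software, called at least 50% of its spots well above background. Levels of different probes depend on the probe and were not set against each other. The HOTAIR probe was detected on 3 of the 3 HOTAIR arrays, at -3.24 to -2.58, and on 0 of the 4 EV arrays, at -7.07 to -6.29. EV 2 and, less so, HOTAIR 3 stood apart from the rest of their groups over all probes. The slide held all 7 arrays, EV in 1 row and HOTAIR in the other, and an effect of the row cannot be told apart from that of the group.

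The probe sequences matter for KRT8, KRT18 and KRT8P12, since the account of these genes turns on what each probe can bind. That of KRT79 is shown beside them. The array annotation (hg19) placed all 4 probes of KRT8 and KRT18 away from chromosome 12. A KRT18 probe lay at chr4:145493732-145493791 and a KRT8 probe at chr1:157043587-157043646, both on the plus strand. The RefSeq table of GRCh38.p14 lists KRT8 and KRT18 on chromosome 12, with 52 pseudogenes named for KRT8 and 68 named for KRT18. How far these probes bind transcripts of the parent genes and how far those of such copies was not tested. The KRT8P12 probe lay at chr3:160287003-160287062 on the plus strand and the single KRT79 probe at chr12:53215321-53215380 on the minus strand. The first 30 of 60 bases are shown for the last pair, and all letters are those of the probes as the array files give them.
KRT18 A_24_P42136: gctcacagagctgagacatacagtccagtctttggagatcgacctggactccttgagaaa
KRT8 A_24_P67395: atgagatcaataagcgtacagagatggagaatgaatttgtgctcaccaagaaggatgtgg
KRT8P12 A_33_P3772937: tgtctgagtcctctgacttcctgcccaagt
KRT79 A_33_P3315263: tgaatttctcaagccattaggagagagaga

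Over the whole family, 24 probes were placed on chromosome 12, KRT79 included, 26 on chromosome 17 and 5 elsewhere, and 6 had no position. Probes of different keratins differed in their letters. The closest pair was KRT6C and KRT75, identical at 34 of 43 aligned positions, and no other pair reached 75%. Only probes were compared with each other here, and binding of a probe to transcripts of another keratin was not tested.

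The simple epithelial keratins were detected nearly in full in ACHN cells, the hair keratins in part and the inner root sheath and stratified keratins to a smaller share. Of 5 simple epithelial keratins, 4 (KRT7, KRT8, KRT18 and KRT19) were detected on all 7 arrays, while KRT20, a keratin of gut epithelium, was detected on none. Of 17 hair keratins, 6 were detected on all arrays, namely KRT32, KRT34, KRT81, KRT83, KRT85 and KRT86. KRT83 counts here by its brighter probe, while its second probe was detected on EV 3 alone, at -7.24 to -4.99 over all arrays. Of 8 inner root sheath keratins, KRT73 was detected on all arrays and the others on none. Among 22 keratins of stratified and epidermal cells, KRT3, KRT10, KRT15 and KRT78 were detected on all arrays, and KRT5 and KRT1, which mark basal and suprabasal keratinocytes, were not detected on any. Outside these classes KRT80 and KRT222 were detected on all arrays and KRT23 on none.

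By type, 7 of 29 type I genes (24.1%) and 10 of 26 type II genes (38.5%) were detected on every array of a group, against 47.9% of all 34797 gene names with a value on every array. Within the hair keratins the type II side held 4 of 6 genes, with KRT83 counted by its brighter probe, and the type I side 2 of 11. Both simple epithelial type II genes and 2 of the 3 simple epithelial type I genes were detected. With KRT8P12, 20 probes of 18 names could be tested, and each of them was detected on all 7 arrays, so that none entered through 1 group alone. The other 41 probes were not tested. Of these, 34 were on no array well above background and 7 were detected on some arrays only.

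**Figure D1:**
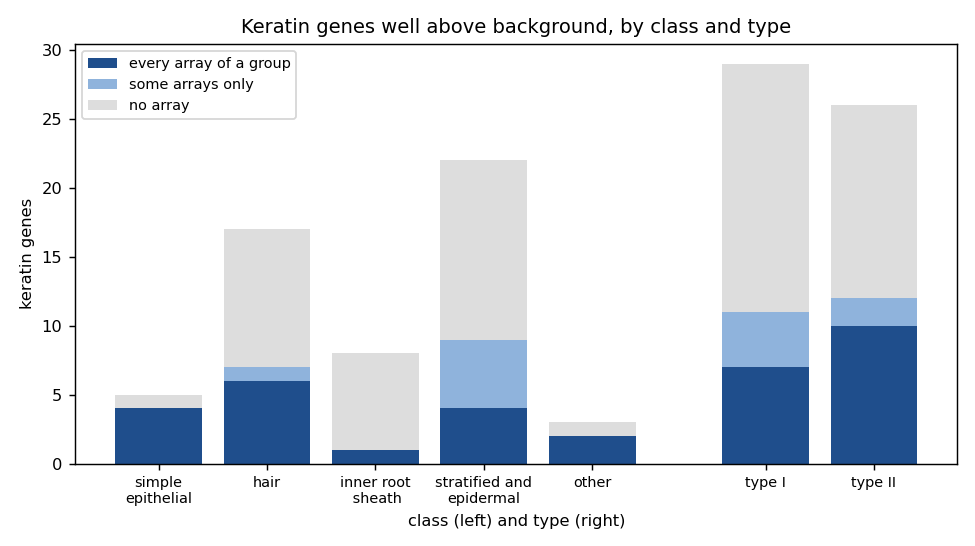
Number of keratin genes (y axis) in each class and in each type, coloured by whether a probe was well above background on every array of a group, on some arrays only or on no array. The simple epithelial class has 4 of 5 genes in the first colour, and the stratified and epidermal class has 4 of 22.

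Markers of other cells were looked at beside this pattern. PAX8 and PAX2, transcription factors of the renal tubule lineage, were detected on all 7 arrays. Of 9 keratinocyte markers, KRT10 was detected on all arrays and 5 (KRT5, KRT1, TP63, LOR and IVL) on none. KRT14 and FLG were each detected on 1 HOTAIR array and DSG3 on 2, and none of these on an EV array. KRT14 was detected in 1 of its 2 spots. On HOTAIR 1 and HOTAIR 3 the DSG3 spot beside KRT79, described below, was at -4.61 and -4.17. Its other spot was at -7.26 and -7.53. Over all probes, those detected on a single array numbered 603 for HOTAIR 1 and 594 for HOTAIR 3, against 121 to 269 for the others. Summed on the linear scale, as multiples of the 75th percentile, the 9 had a level of 9.72 to 16.99 on the EV arrays and 10.96 to 15.45 on the HOTAIR arrays, nearly all of it KRT10 (9.62 to 16.90 and 10.87 to 15.38). None of 5 fibroblast markers was detected on any array, with sums of 0.0329 to 0.0462 on the EV arrays and 0.0366 to 0.0462 on the HOTAIR arrays. Of 3 leukocyte markers, CD68 was detected on all arrays, PTPRC on 3 EV and 2 HOTAIR arrays and CD3E on none. The sums were 1.29 to 1.46 on the EV arrays and 1.33 to 1.46 on the HOTAIR arrays, nearly all of it CD68.

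No keratin passed the test between ACHN-HOTAIR and ACHN-EV. In these bulk samples fewer cells with a keratin and less of its RNA per cell cannot be told apart. By limma with Benjamini-Hochberg adjustment over 20419 tested probes, 0 of 20 keratin probes had an adjusted p under 0.05, while 34 of all tested probes (0.167%) did. The keratins' adjusted p-values ran from 0.274 to 0.996 and their log2 differences, HOTAIR minus EV, from -0.60 to 0.45. The differences were negative for 12 probes and positive for 8, with a median of -0.16 against 0.01 over all tested probes. An unadjusted p under 0.05 was reached by 4 of 20 keratin probes, against 5.85% of all tested probes. The Mann-Whitney U test cannot go below an exact p of 0.0571 with 3 against 4 arrays and called 0. The rank product, the ranking used by the study, called 0 of the 20 higher and 0 lower, where it called 0.255% and 0.162% of all tested probes.

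**Figure D2:**
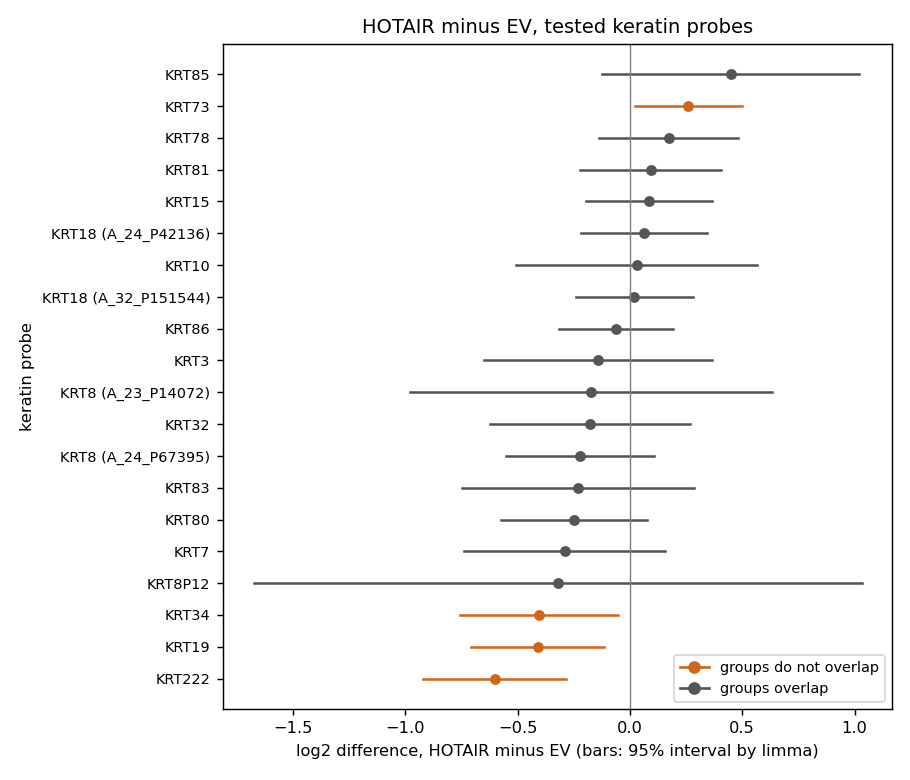
Log2 difference, HOTAIR minus EV (x axis), of the 20 tested keratin probes (y axis), with 95% intervals by limma as bars. Points in orange are the 4 probes whose groups did not overlap, KRT222, KRT19 and KRT34 below 0 and KRT73 above 0.

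The same 4 keratin probes of 20 had groups that did not overlap, where 7.7% of all tested probes did. KRT19, KRT34 and KRT222 lay lower on the HOTAIR arrays, as 3.5% of all tested probes did, and KRT73 lay higher, as 4.2% did.

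KRT19 is the smallest keratin, of ductal and simple epithelia, and is unusual in lacking most of the tail domain. It had levels of 6.21, 5.83, 6.04 and 6.05 (EV 1 to EV 4), against 5.72, 5.67 and 5.47 (HOTAIR 1 to HOTAIR 3). Every HOTAIR array lay below every EV array. The EV mean was 6.03 ± 0.15 (SD, n = 4) and the HOTAIR mean 5.62 ± 0.13 (SD, n = 3). The log2 difference was -0.41 with an SE of 0.13 and an adjusted p of 0.602 by limma. The 2 spots of the probe differed by little on any array, with SDs of 0.01 to 0.10.

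KRT222, a keratin-like type I protein, had levels of -2.19, -2.28, -2.35 and -2.57 (EV 1 to EV 4), against -3.14, -2.81 and -2.90 (HOTAIR 1 to HOTAIR 3). Its groups were apart on all arrays and its difference of -0.60 (SE 0.14) was the largest of any tested keratin in size in the main processing, with an adjusted p of 0.274 by limma. A single spot carries it, at chr17:38812755-38812814 (hg19). Under another background correction (normexp) it differed by -0.31 (adjusted p = 0.831 by limma).

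KRT34, a type I hair keratin, had levels of -2.50, -2.56, -2.27 and -2.06 (EV 1 to EV 4), against -2.84, -2.81 and -2.61 (HOTAIR 1 to HOTAIR 3). The difference was -0.41 (SE 0.15), with an adjusted p of 0.753 by limma, and -0.27 with normexp. KRT34 is one of 4 keratins printed in 10 spots, and the spots of an array had SDs of 0.06 to 0.44. The separation of its groups rests on leaving out spots that the software marked as outliers, since with all spots EV 2 had -2.56 and HOTAIR 3 had -2.55.

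KRT73, a type II keratin of the inner root sheath, had levels of -0.66, -0.67, -0.73 and -0.62 (EV 1 to EV 4), against -0.52, -0.40 and -0.30 (HOTAIR 1 to HOTAIR 3). All HOTAIR arrays lay above the EV arrays. The difference was 0.26 (SE 0.10), with an adjusted p of 0.785 by limma and a 95% interval of 0.02 to 0.50 that holds for a single test.

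KRT18, the type I chain of the simple epithelial pair, had levels of 6.76, 6.99, 6.69 and 6.86 (EV 1 to EV 4), against 6.85, 6.87 and 6.82 (HOTAIR 1 to HOTAIR 3) at its brightest probe. The groups overlapped, with a difference of 0.02 and a 95% interval by limma of -0.24 to 0.28. Its other probe gave 0.06, with an interval of -0.22 to 0.35. A difference of the size seen at KRT19 therefore lay outside the intervals of both probes. How far these probes bind transcripts of KRT18 itself was not tested.

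KRT8, the type II partner, had levels of 5.10, 6.41, 4.97 and 5.24 (EV 1 to EV 4), against 5.16, 5.06 and 5.54 (HOTAIR 1 to HOTAIR 3) at its brightest probe. EV 2 was the highest array by more than the range of all others. The difference was -0.18, with an interval of -0.98 to 0.63, and it turned to 0.15 when EV 2 was left out. The other KRT8 probe did not have EV 2 apart, with -0.86, -1.17, -1.29 and -1.09 in the EV group against -1.51, -1.27 and -1.20 in the HOTAIR group. Its difference was -0.22, with an interval of -0.55 to 0.11.

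KRT7, a type II keratin of ductal epithelia, had levels of 4.27, 3.93, 4.49 and 4.56 (EV 1 to EV 4), against 4.19, 4.16 and 3.72 (HOTAIR 1 to HOTAIR 3). The groups overlapped, and the lowest array of each group was EV 2 and HOTAIR 3. The difference was -0.29, with an interval of -0.74 to 0.16, and it was -0.14 without HOTAIR 3 and -0.42 without EV 2.

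KRT80, a type II keratin found in many epithelia, had levels of 3.45, 3.67, 3.38 and 3.79 (EV 1 to EV 4), against 3.30, 3.20 and 3.47 (HOTAIR 1 to HOTAIR 3), with a difference of -0.25. KRT8P12 had levels of 3.21, 5.28, 2.85 and 3.61 (EV 1 to EV 4), against 3.16, 2.94 and 4.15 (HOTAIR 1 to HOTAIR 3). Its difference was -0.32 and turned to 0.19 without EV 2.

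Among the other hair keratins, KRT85, a type II keratin of the hair matrix, had the largest positive difference of the tested keratins in the main processing, 0.45 with an SE of 0.25. With normexp it was 0.13, below the 0.27 of KRT73. Its levels were -5.02, -4.91, -5.04 and -4.17 (EV 1 to EV 4), against -4.16, -4.67 and -4.18 (HOTAIR 1 to HOTAIR 3), so that EV 4 lay among the HOTAIR arrays. The type II hair keratins KRT81, KRT83 and KRT86 had differences of 0.09, -0.23 and -0.06, and the type I hair keratin KRT32 had -0.18. KRT83 was at 2.23 on EV 2 and between 1.25 and 1.57 on the other arrays, and its difference was -0.0423 without EV 2 and -0.35 without EV 3. The KRT32 difference was -0.0367 without EV 4 and -0.27 without EV 1, and that of KRT81 was 0.00382 without HOTAIR 1.

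The stratified and epidermal keratins that were tested had small differences. KRT10, the type I keratin of suprabasal epidermis, differed by 0.03, and KRT15, of the basal layer, by 0.09. KRT3, which is paired with KRT12 in the cornea, differed by -0.14 and KRT78, of stratified epithelia, by 0.17. The groups overlapped for each of these 4 genes. Leaving out single arrays moved them by most of their size or more. Without HOTAIR 1 the KRT15 and KRT78 differences were 0.0156 and 0.0548, and without EV 4 that of KRT3 was -0.0156. KRT78 differed by 0.0191 with normexp.

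**Figure D3:**
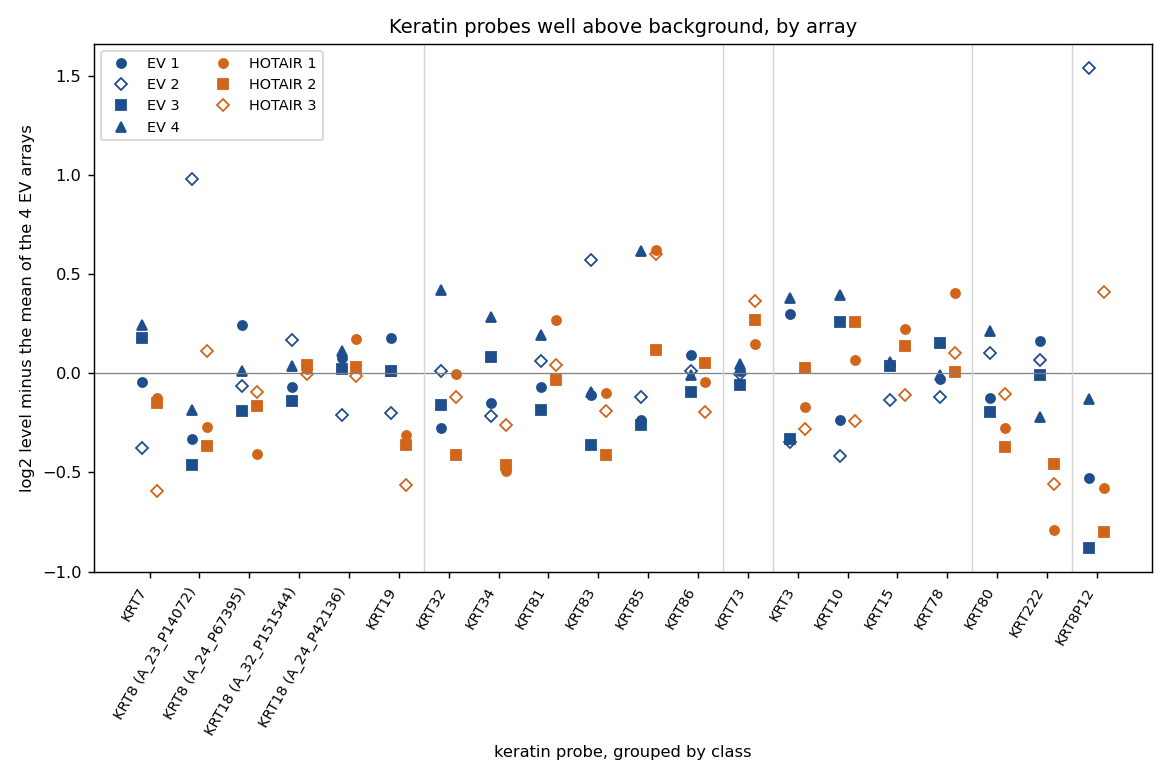
Level of each tested keratin probe on each array minus the mean of its 4 EV arrays (y axis, log2), with probes along the x axis grouped by class. EV arrays are blue and HOTAIR arrays orange, and the open diamonds of EV 2 and HOTAIR 3 stand apart at KRT8 (A_23_P14072) and KRT8P12, where EV 2 reached 6.41 and 5.28.

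EV 2 was the highest or the lowest EV array for 12 of 20 keratin probes, 4 times the highest and 8 times the lowest, where it was so for 71.5% of all tested probes. Across the 20 probes, each taken relative to the mean of its group, EV 2 and HOTAIR 3 had a Pearson correlation of 0.84, and over the 17 probes other than those of KRT8 and KRT8P12 it was 0.53. Over all tested probes it was 0.62. The probes share these arrays and their scaling, so these values are descriptions. The median SD of a tested keratin probe was 0.19 over the EV arrays and 0.16 over the HOTAIR arrays, against 0.23 and 0.17 over all tested probes.

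KRT79, a type II keratin of the hair canal and sebaceous duct, is a gene that the study took from these arrays for its heatmap, so that any test on it is no independent evidence. It had levels of -6.69, -6.98, -7.41 and -7.28 (EV 1 to EV 4), against -1.56, -7.17 and -3.66 (HOTAIR 1 to HOTAIR 3). HOTAIR 1 and HOTAIR 3 were far above all EV arrays, and HOTAIR 2 lay among them. The probe was detected on HOTAIR 1 and HOTAIR 3 and on no EV array, so it was not tested across all probes. The EV mean was -7.09 ± 0.32 (SD, n = 4) and the HOTAIR mean -4.13 ± 2.83 (SD, n = 3). They differed by 2.96 on the log2 scale, by 1.68 without HOTAIR 1 and by 4.48 without HOTAIR 2. With normexp, whose offset shrinks the differences of dim probes, they differed by 0.80. All of these set 2 arrays against levels that were not well above background, and with the p and the rank that follow they are a description only. The exact permutation test of the group means, two-sided, gave p = 0.0857, where 0.0286 is the smallest p that 3 against 4 arrays allow. Without the filter on dim probes the rank product placed KRT79 at rank 17 of 42391 probes, with a pfp (the expected share of false positives) of 0.0376. It was the single keratin called higher under that setting, and 0 were called lower, where 0.0448% and 0.0259% of all probes were called.

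The KRT79 probe has 1 spot on the array, and on HOTAIR 1 and HOTAIR 3 spots of other genes around it were raised too. Of its 6 nearest spots, 5 on HOTAIR 1 and 3 on HOTAIR 3 lay more than 1 log2 unit above their own EV median, and 0 on each of the other 5 arrays. The median rise of the 6 spots was 2.68 on HOTAIR 1 and 1.21 on HOTAIR 3. Over all 58717 non-control spots, the share raised by as much was 4.64% on HOTAIR 1, 3.70% on HOTAIR 3 and 1.91% to 5.02% on the others. Farther out, between 26 and 52 position units of the scanner file, 11 of 40 spots were raised on HOTAIR 1 and 0 on HOTAIR 3, where the 6 nearest spots lay 11.9 to 12.5 units away.

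**Figure D4:**
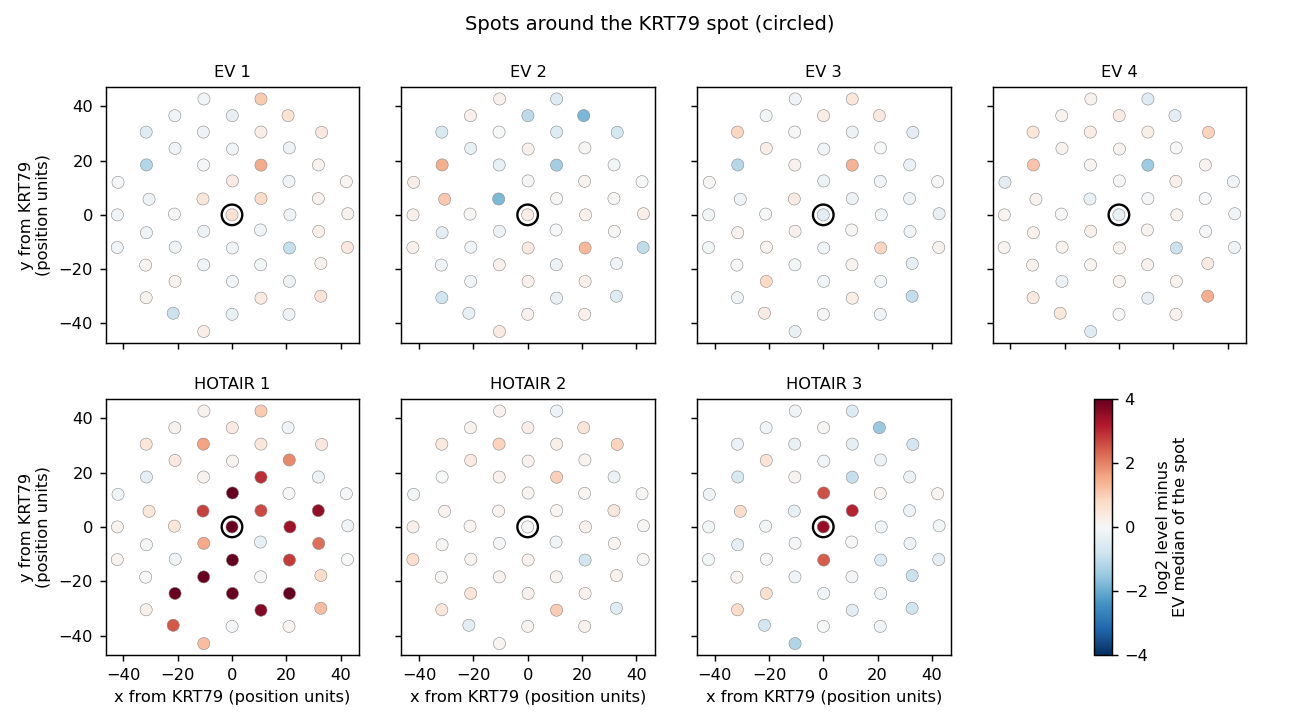
Spots within 45 position units of the KRT79 spot (circled, at 0 on both axes) on each array, coloured by log2 level minus the EV median of the same spot, with the colour scale ending at 4 and -4. Raised spots surround KRT79 on HOTAIR 1 and lie next to it on HOTAIR 3, while the other 5 arrays have 0 of the 6 nearest spots raised.

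Neighbouring probes with further spots elsewhere on the array allow a direct comparison. CUGBP2, an RNA-binding protein gene whose probe has 10 spots, was at -2.80 on HOTAIR 1 and -4.93 on HOTAIR 3 in the spot beside KRT79. Its other 9 spots had medians of -7.25 and -7.49 on the same arrays and did not go above -7.10 and -7.19. On HOTAIR 2 the spot beside KRT79 was at -7.17, near the median of -7.22 of the others. DSG3, a desmosomal cadherin of keratinocytes, was at -4.61 and -4.17 in the spot beside KRT79 and at -7.26 and -7.53 in its other spot. CCL3L3, a chemokine gene with 1 spot, was at -3.14 and -4.67 on these arrays, where its EV levels lay between -7.41 and -6.96. TAF12, a bright neighbour, did not share the rise, with 1.91 and 2.27 on HOTAIR 1 and HOTAIR 3. VRK3 and SLC12A9, the remaining nearest spots, differed from their EV medians by 1.51 and 2.72 on HOTAIR 1. On HOTAIR 3 they differed by -0.07 and -0.35. All these neighbours were named after their values were seen, as the nearest spots.

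**Figure D5:**
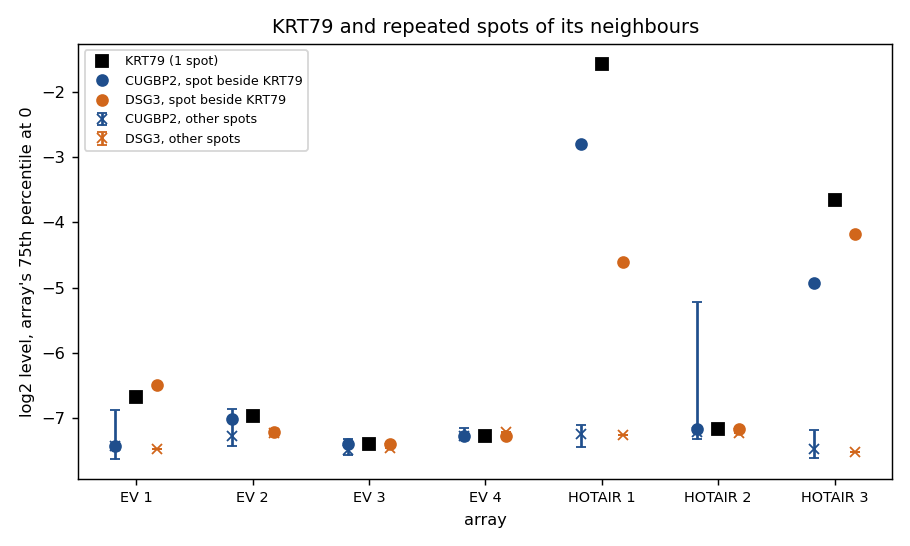
Level (y axis, log2, with the 75th percentile of the array at 0) of KRT79 and of the CUGBP2 and DSG3 spots beside it on each array (x axis), with crosses for the median of the other spots of the same probes and bars for their lowest and highest. On HOTAIR 1 and HOTAIR 3 the spots beside KRT79 lie at -2.80 to -4.93 while the other spots of both probes stay below -7.

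The local background beside the KRT79 spot was 38 on HOTAIR 1 and 35 on HOTAIR 3, within the 30 to 40 of the EV arrays, and no outlier call was made for it. KRT79 is 1 of 58 probes detected on HOTAIR 1 and HOTAIR 3 but not on HOTAIR 2 or any EV array. The lower of its 2 levels lay 3.03 log2 units above its highest EV level. Of the 58 probes, 1 reached that distance, KRT79 itself. In all, 127 probes were detected on 2 HOTAIR arrays and no EV array and 167 on 2 EV arrays and no HOTAIR array. Probes detected on a single array numbered 603 for HOTAIR 1 and 594 for HOTAIR 3, against 121 to 269 for the others. What raised the spots was not tested.

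Of the genes beside KRT79 on chromosome 12, those detected on all arrays did not share its high levels on HOTAIR 1 and HOTAIR 3. The others were too dim to tell. In the RefSeq order the neighbours of KRT79 are KRT76, KRT3 and KRT4 on one side and KRT78 on the other. KRT78 and KRT3, detected on all arrays, differed by 0.17 and -0.14. KRT76 was on no array well above background, at -5.74 or higher on all 3 HOTAIR arrays and at -6.05 or lower on the EV arrays. KRT4, a keratin of mucosal epithelium, was detected on HOTAIR 3 alone, with levels of -5.60, -5.89 and -5.33 on the HOTAIR arrays against -6.26 to -5.43 on the EV arrays. The chromosome 12 keratin probes lie 1124 to 1793 kb from the HOTAIR probe, and the differences of the tested ones among them ran in both directions.

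The other keratins detected on some arrays only were dim. KRT24, a type I keratin, was detected on HOTAIR 3 alone, at -4.35 against -7.56 to -7.21 on the other 6 arrays, and 2 of its 6 nearest spots were raised there. KRT14, the type I keratin of basal keratinocytes, was detected on HOTAIR 1 in 1 of 2 spots, at -3.66, while the other was at -5.85, and 2 of the 6 spots nearest to the first were raised. KRT31, a type I hair keratin, was detected on EV 1, EV 3, HOTAIR 2 and HOTAIR 3 with levels of -5.80 to -4.88 over all arrays. KRT9, of palm and sole skin, and the second KRT83 probe were detected on EV 3 alone. On no array well above background, KRT16 had lower levels on the HOTAIR arrays (-7.19 to -6.80) than on the EV arrays (-6.44 to -5.60) and KRT76 had higher ones (-5.74 to -5.66 against -6.68 to -6.05), and no fold is given for these. They were named after their values were seen, as the 2 of 41 untested keratin probes whose groups did not overlap, where 3.91% of all untested probes did so.

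No tested gene of the list of keratin linkers and regulators passed the test. Of 21 listed names, 20 had a probe, and PLEC (plectin) had none of its name. Of the 20, 17 were tested and 0 were called, with a median difference of -0.03 beside 0.01 over all tested probes. An unadjusted p under 0.05 by limma was reached by 0 of them and by 5.85% of all tested probes. The largest differences were those of JUP (plakoglobin, -0.28), TCHP (trichoplein, a keratin-binding protein, 0.25) and DST (dystonin, -0.19).

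Of 13 other intermediate filament genes, 9 were tested and 0 were called by limma, with 3 at an unadjusted p under 0.05 and 8 of 9 differences positive. The median was 0.14, beside 0.01 over all tested probes, of which 5.85% had an unadjusted p under 0.05. NEFL, the light neurofilament chain, had levels of 0.32, 0.11, 0.11 and 0.03 (EV 1 to EV 4), against 0.99, 1.15 and 0.82 (HOTAIR 1 to HOTAIR 3). Its groups did not overlap, and its difference was 0.84 (SE 0.13) with an adjusted p of 0.083 by limma. SYNM (synemin) differed by 0.42 with an adjusted p of 0.338 and NES (nestin) by 0.28 with one of 0.785, and neither pair of groups overlapped, which also held for 7.7% of all tested probes. VIM (vimentin, the filament of mesenchymal cells), named after its value was seen, differed by 0.06 with an adjusted p of 0.993.

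Of 14 transcription factors known to act on keratin genes, 8 were tested and 0 were called, with 0 at an unadjusted p under 0.05 (5.85% of all tested probes) and a median difference of 0.04 beside 0.01. The other 6 were detected on no array. KLF5, of proliferating epithelium, differed by -0.37 and GRHL1, a grainyhead factor of epithelial differentiation, by 0.20.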

How the data were processed

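Total RNA of 4 ACHN-EV and 3 ACHN-HOTAIR samples was labelled with Cy3 and hybridised to 7 SurePrint G3 Human GE arrays. The authors deposited Feature Extraction 10.7.3.1 output for each array, with processed spot intensity values (background subtracted, not scaled between arrays). They also deposited a table of the same intensity values, and its 440783 cells differed from those of the scanner files by at most 0.498%. That table is therefore linear, and its column medians were 18.6 to 28.3. No spot was saturated.

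Groups and numbers came from the sample titles. Processed intensities were put on the log2 scale, relative to the 75th percentile of the 58717 non-control spots of their array (intensity 523 to 649). Outlier spots were left out and spots of a probe averaged. A probe was detected on an array when at least 50% of its spots were well above background, which held for 48.7% to 52.2% of probes, and was tested when detected on every array of at least 1 group. Groups were compared with limma 3.58.1 in R 4.3.3 (lmFit, eBayes, Benjamini-Hochberg over 20419 probes, adjusted p 0.05), with the rank product over 12 array pairs and 100 permutations (pfp 0.05), and for KRT79 with an exact permutation test over 35 splits. The fits were tested on simulated data.

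The keratins, their classes, the partner lists and the markers were chosen with earlier results of these data known. Keratins detected on any array, KRT79 and, of each partner list, the genes past the adjusted p or otherwise the 3 tested genes with the largest difference were named; others are given by counts. One gene that this rule names is not reported here. The brightest probe represents a gene. The alternatives were normexp (offset 50), quantile normalization, the percentile over detected probes, other filters, the deposited table, each array left out, the replicate block, trend and robust moderation, the mean over probes, the rank product and the Mann-Whitney U test. Array weights and leaving out EV 2 with HOTAIR 3 were chosen after seeing the data. The number of arrays limits the precision, and RefSeq (GRCh38.p14) was used for names and gene order only. Of the keratin names, 56 of 56 were found in it.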

Additional observations from a re-analysis of the deposited data

Results flagged for a closer look

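In 4 of 28 sets of EV values examined, 1 array lay farther from the others than Dixon's 95% limit for 4 samples, as a share of the range, and chance flags about 1 in 20. The HOTAIR group, with 3 arrays, was not examined. KRT15 had a gap of 0.896 of its range, with EV 2 at -2.14 and the other EV arrays at -1.96 to -1.94. KRT85 had a gap of 0.841, with EV 4 at -4.17 and the others at -5.04 to -4.91. The second KRT83 probe had a gap of 0.841, with EV 2 at -7.24 and the others at -5.35 to -4.99. This probe was detected on EV 3 alone, so the levels on both sides of its gap were not well above background. The score on the first principal component over all tested probes had a gap of 0.896, with EV 2 at 74.0 and the others at -18.1 to -8.50.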

How the results depend on the processing

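No keratin probe was called by limma under any of the alternatives, and the lowest adjusted p of a named keratin was 0.0548 (KRT222, array weights). The rank product without the filter on dim probes called 1, KRT79. Of 18 named keratins, 12 kept their sign under every alternative, and the cause of the other changes was not tested. KRT8 turned to 0.15 without EV 2, to 0.00825 without EV 2 and HOTAIR 3 and to 0.0531 with array weights. KRT8P12 turned to 0.19 without EV 2 and to 0.0064 with array weights. KRT86 turned to 0.0672 with normexp, to 0.00781 without EV 2 and HOTAIR 3 and to 0.0447 with array weights. KRT18 turned to -0.0143 with quantile normalization, KRT3 to 0.0685 with array weights. With single arrays left out, KRT10 ran from -0.11 (without EV 2) to 0.16, KRT18 from -0.0261 (without EV 3) to 0.0765, KRT86 from -0.119 to 0.00414 (without HOTAIR 3), KRT8 from -0.33 to 0.15 and KRT8P12 from -0.69 to 0.19. The KRT79 difference ran from 1.68 (without HOTAIR 1) to 4.48 (without HOTAIR 2) and was 0.80 with normexp. Its exact permutation p-values were 0.0667 to 0.3 over the alternatives. The 0.0667 was that without HOTAIR 2, where the remaining arrays allow no smaller p. The smallest possible p differs between the alternatives, so these values cannot be ranked against each other. Detection on at least 1 array gave 11 type I genes in place of 7 and 9 stratified and epidermal genes in place of 4. The genes so added were detected on some arrays only. Among them, KRT79, KRT24 and KRT14 had raised spots nearby, as described above.

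Calls over all probes, 34 above, were 12 with normexp, 14 without the filter, 22 with detection on all arrays, 20 with trend and robust moderation, 14 without EV 2 and HOTAIR 3, 324 with array weights and 9 (without EV 1) to 31 (without EV 2) with 1 array left out. With the replicate block limma called 0, with 1073 of 20419 probes and 2 of 20 keratin probes at an unadjusted p under 0.05. Same-numbered arrays had correlations of 0.39, -0.37 and -0.41 in their deviations and 0 of 3 matched best with their own number, so the numbers were not taken as pairs. The partner lists had 0 calls except 1 (NEFL) with array weights.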
